A study of Mus musculus with 17 samples.

Results

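The genes described here encode the hyaluronan matrix of the brain, including the perineuronal net. They were chosen by symbol from a fixed list of 10 genes: the 4 lecticans Acan, Bcan, Ncan and Vcan, the link proteins Hapln1, Hapln2 and Hapln4, the tenascins Tnr and Tnc, and the hyaluronan synthase Has3. All 10 were found among the 55453 gene symbols of the table, each in a single row. Hyaluronan is a long sugar chain made at the cell surface. Lecticans are chondroitin sulfate proteoglycans that bind it, link proteins lock that bond, and tenascins cross-link the lecticans into a lattice. Around some neurons of the cortex, many of them parvalbumin interneurons, this lattice condenses into perineuronal nets as the cortex matures, and related assemblies surround the nodes of myelinated axons.

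RNA from bulk cortex was sequenced in 17 male C57BL/6J mice of 6 groups to ask how loss or substitution of hnRNPH2, an X-linked RNA-binding protein, alters gene expression. Hemizygous Hnrnph2 knockout (KO) and R206W knockin males were sampled at 8 weeks and hemizygous P209L knockin males at 3 weeks, with 3 mice in each group. Wild-type littermates of each line served as controls, with 3 KO controls and 3 R206W controls at 8 weeks and 2 P209L controls at 3 weeks analysed here. The KO line carries a frameshifting indel whose transcript is degraded, and each knockin changes 1 residue of the mouse protein in all cells. The P209L line is the one line sampled at 3 weeks, so line and age cannot be told apart.

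Values are TPM, the share of a transcript among 1000000 transcripts after correction for transcript length. Sequencing depth is unknown from such values, and precision was judged from the spread between mice. Hnrnph2 itself was at 21.3 to 24.4 TPM in the KO mice and at 80.5 to 160.4 TPM in the other groups. KO control 1 stood apart, with 20.1% of its TPM in mitochondrial genes against 10.7% to 15.4% in the other 16 mice, and it held the lowest 8-week value for 6 of the 10 genes. P209L control 2 held 1740 TPM of Ttr, a choroid plexus gene, against at most 23.2 TPM in the other 16 mice. Effects of these libraries are given with the results they touch. In bulk tissue, fewer cells of a type and less RNA per cell cannot be told apart.

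Brevican dominated the set. At 8 weeks Bcan averaged 155 ± 25.4 TPM (SD, n = 12), Ncan 70.2 ± 13.5 TPM, Hapln4 64.3 ± 15.0 TPM, Tnr 42.7 ± 8.65 TPM and Hapln1 29.0 ± 2.91 TPM. Lower levels were found for Hapln2 (9.52 ± 1.71 TPM), Vcan (6.31 ± 0.699 TPM), Acan (1.36 ± 0.416 TPM), Tnc (1.05 ± 0.289 TPM) and Has3 (0.923 ± 0.171 TPM). Neighbours in this order whose means lay within 1 SD of each other were Ncan and Hapln4, Acan and Tnc, and Tnc and Has3. At 3 weeks Hapln4 had moved from rank 3 to rank 5, at 18.3 ± 6.34 TPM (SD, n = 5), behind Tnr (24.7 ± 2.23 TPM) and Hapln1 (22.2 ± 6.21 TPM), and these neighbours overlapped. Aggrecan, the lectican best known from perineuronal nets, had the lowest transcript level of the 10 genes at 3 weeks, 0.526 ± 0.116 TPM.

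**Figure D1:**
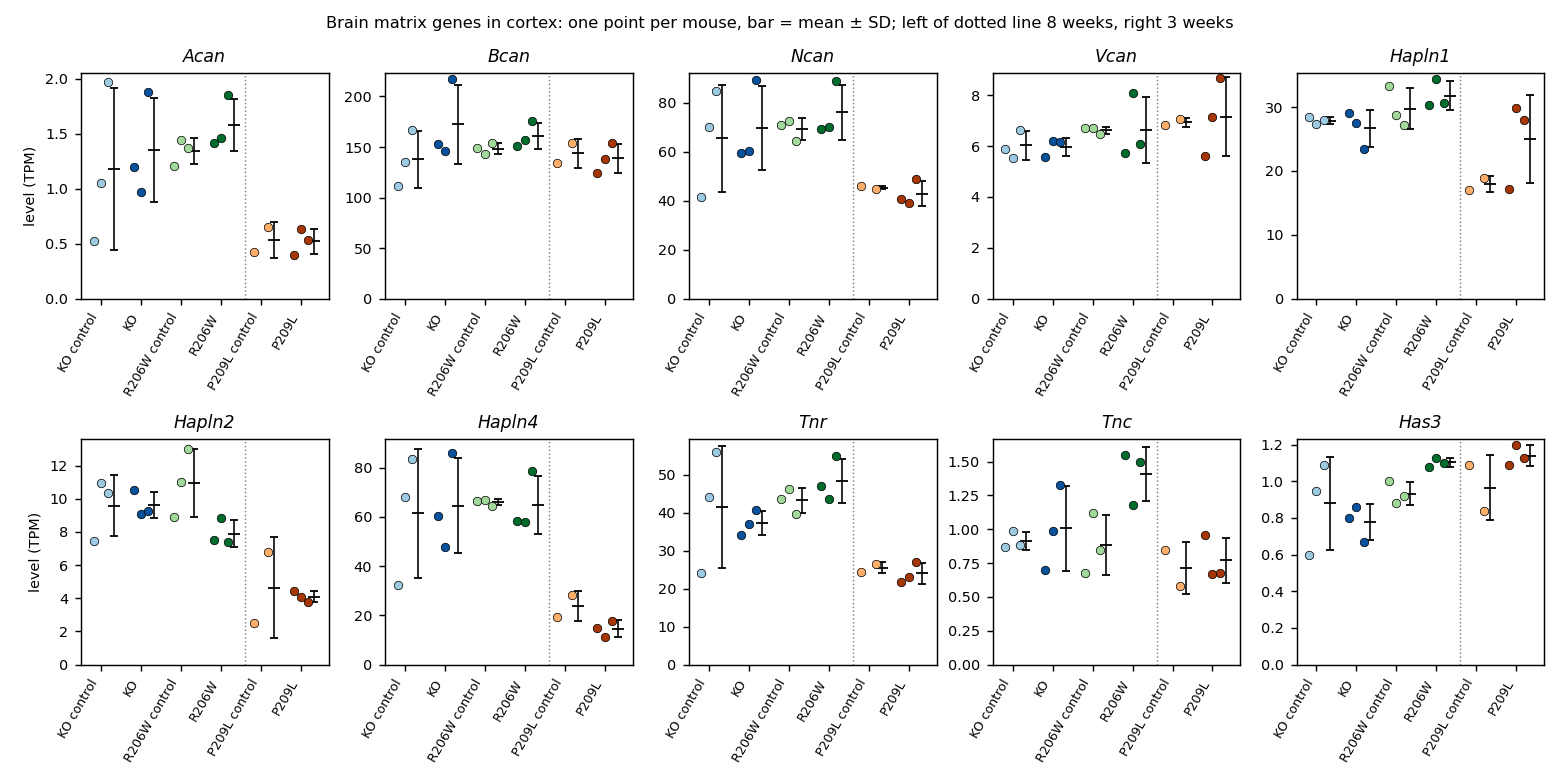
Level (TPM, linear axis from 0) of each of the 10 genes in every mouse, 1 point a mouse, with the mean and SD of each group; groups left of the dotted line are 8 weeks old and those to the right 3 weeks. Hapln4 and Hapln2 lie lower in all 5 mice of 3 weeks than in all 12 mice of 8 weeks, while Bcan and Vcan overlap between the ages.

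Several of these genes sit beside each other in the genome. In GRCm38, Ncan (chr8:70093085-70120873, minus strand) and Hapln4 (chr8:70083457-70090862, plus strand) are 2222 bases apart. Bcan (chr3:87987531-88000230) and Hapln2 (chr3:88021750-88027583), both on the minus strand, are 21519 bases apart, and Vcan (chr13:89655312-89742509, minus strand) and Hapln1 (chr13:89539796-89611652, plus strand) are 43659 bases apart. Acan (chr7:79053483-79115099, plus strand) ends 2 bases from Hapln3, a link protein gene at 0.45 to 1.33 TPM in these mice.

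The promoters of Ncan and Bcan are shown as those of the most abundant lecticans, of which Ncan was called by age in the mutants and Bcan in neither comparison by age. Each is the 250 bases before the gene's start in RefSeq (GRCm38.p6), read 5′ to 3′ on the gene's strand, at chr8:70120845-70121094 for Ncan and chr3:88000357-88000606 for Bcan, both on the minus strand. Capitals mark a GC box (GGGCGG) or a TATA box (TATAAA) on either strand.
Ncan: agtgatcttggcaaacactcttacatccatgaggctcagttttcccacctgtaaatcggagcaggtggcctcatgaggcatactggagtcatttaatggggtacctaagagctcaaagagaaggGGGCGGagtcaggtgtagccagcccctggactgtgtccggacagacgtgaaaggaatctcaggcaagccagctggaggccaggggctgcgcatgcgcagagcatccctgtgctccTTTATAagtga
Bcan: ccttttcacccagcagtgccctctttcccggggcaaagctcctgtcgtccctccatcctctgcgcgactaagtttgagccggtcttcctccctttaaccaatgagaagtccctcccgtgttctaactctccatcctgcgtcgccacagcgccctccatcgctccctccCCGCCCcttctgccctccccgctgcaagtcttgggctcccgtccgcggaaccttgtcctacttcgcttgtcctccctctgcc
The Ncan window has 54.4% GC with 1 GC box and 1 TATA box, and the Bcan window has 62.0% GC with 1 GC box and no TATA box. Over 32851 RefSeq promoter windows of the same length, 32.7% held a GC box and 12.4% a TATA box, and the median GC content was 52.4%. Windows were found for 8 of the 10 genes, and the GC box was in all 4 lectican windows, with 3 in Acan and 2 in Vcan. It was also in Tnc, which held a TATA box too, and in none of the Hapln1, Hapln2 and Tnr windows. These matches describe letters and say nothing of binding.

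In the 3-week controls, Hapln4, Hapln2, Tnr and Hapln1 were lower than in the 8-week controls, so that 4 of the 8 genes that could be tested passed the test, all lower, and 0 were higher. Over all 16265 genes tested, 24.8% were lower and 11.3% higher by the same rule (36.1% in all). Tnc and Has3 were below the filter of a mean of 1 TPM and are given from a fit without it. Acan passed that filter, at 1.12 TPM over all 17 mice, only through the 8-week mice (1.36 TPM, against 0.526 TPM at 3 weeks). The test was limma on log2(TPM + 1) with Benjamini-Hochberg adjustment, and each difference is the 3-week value minus the 8-week value. The median difference of the 8 genes was -0.59, against -0.12 over all genes tested. Rescaling by size factors, which by design centres the all-gene median near 0 (here 2.05e-05), gave 3503 genes higher and 3677 lower, against 1837 and 4039 as deposited. Of the 8 genes 6 were then called, all lower.

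Hapln4 encodes a link protein found in nets. It was at 19.4 and 28.1 TPM in the P209L controls, at 32.4, 68.2 and 83.7 TPM in the KO controls and at 66.6, 66.9 and 64.5 TPM in the R206W controls. The 3-week controls thus lay below every 8-week control, though the lowest of these, KO control 1, was close. Their mean was 37.3% of that of the 8-week controls, a log2 difference of -1.35 (SE 0.289, adjusted p = 0.00244). Without KO control 1 the difference was -1.55 (adjusted p = 6.26e-05).

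Hapln2, the link protein of nodes of Ranvier, was at 2.51 and 6.78 TPM in the P209L controls, with 7.47, 10.9 and 10.3 TPM in the KO controls and 8.90, 11.01 and 13.0 TPM in the R206W controls. Again the 3-week controls lay below every 8-week control, with a mean of 45.2% of theirs (log2 difference -1.09, SE 0.222, adjusted p = 0.00176). As a ratio, the P209L controls lay farther apart for Hapln2 than for Hapln1 or Hapln4. The mouse with the higher Hapln2 was P209L control 2, the one with high Ttr, in which the summed level of 10 mature oligodendrocyte markers was 6145 TPM against 4128 TPM in P209L control 1. Its part in the Hapln2 level was not tested.

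Hapln1, the link protein made by net-bearing neurons, was at 17.1 and 18.9 TPM in the P209L controls and between 27.2 and 33.3 TPM in the 8-week controls. Its mean was 62.4% of theirs, with no overlap (log2 difference -0.65, SE 0.161, adjusted p = 0.00602). Tnr, the tenascin of the adult brain, was at 24.5 and 26.7 TPM in the P209L controls. The KO controls held 24.2, 44.1 and 56.2 TPM of it and the R206W controls 43.8, 46.4 and 39.7 TPM, so that KO control 1 alone overlapped the younger mice (log2 difference -0.67, SE 0.210, adjusted p = 0.0223).

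The lecticans did not pass the test in the controls. Ncan, a lectican secreted widely in the young brain, was at 45.9 and 44.9 TPM in the P209L controls. It was at 41.7, 70.1 and 84.8 TPM in the KO controls and at 71.0, 72.6 and 64.3 TPM in the R206W controls, with a log2 difference of -0.53 (SE 0.212, adjusted p = 0.0619). KO control 1 was the one 8-week control below the younger mice. Acan was at 0.42 and 0.65 TPM against 0.52 to 1.97 TPM, again with KO control 1 lowest (log2 difference -0.53, SE 0.205, adjusted p = 0.053). Without KO control 1 both passed the test, Ncan at -0.67 (adjusted p = 0.00245) and Acan at -0.65 (adjusted p = 0.00692), and 6 of the 8 genes were then called. Calls rose over all 16265 genes tested too, to 8181 (6089 lower and 2092 higher) from 5876 (4039 lower and 1837 higher).

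Brevican and versican gave no such difference. Bcan, made largely by glia, was at 133.9 and 154.2 TPM in the P209L controls and between 111.1 and 166.9 TPM in the 8-week controls, a log2 difference of 0.02 with a 95% interval of -0.32 to 0.35 (adjusted p = 0.948). Vcan, whose product lies at nodes and around precursor cells, was at 6.81 and 7.06 TPM against 5.53 to 6.70 TPM, above every 8-week control but by little (log2 difference 0.12, SE 0.140, adjusted p = 0.532). Groups in which every 3-week control lay above every 8-week control were found for 16.7% of all genes tested and the reverse for 21.5%, against 1 and 3 of the 10 genes here. Tnc, the tenascin of the immature brain, and Has3 had log2 differences of -0.15 and 0.05 (adjusted p = 0.518 and 0.838, no filter).

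The result in the controls rested on 2 young mice. Leaving out either left 1 mouse in that group and lowered the number of calls over all genes tested as well, so the drop was not particular to these genes. Without P209L control 1, the number of called genes fell from 4 to 0, with adjusted p of 0.0601 for Hapln4, 0.0794 for Hapln1, 0.0836 for Hapln2 and 0.152 for Tnr, although each remained lower by 0.52 to 1.10 on the log2 scale. Without P209L control 2, 3 genes were called and Tnr was not (adjusted p = 0.0948). Without both KO control 1 and P209L control 1, 4 genes were called, and without both KO control 1 and P209L control 2, 6 were.

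The mutant mice gave the same comparison in other animals, though genotype, line and age change together in it. In the 3 P209L mice against the 6 KO and R206W mice, 5 of the 8 tested genes were called, all lower: Hapln4, Hapln2, Tnr, Ncan and Acan. Acan could be tested only through its 8-week level, and it was also called in the fit without a filter. Over all genes tested, 32.1% were called lower and 13.9% higher (45.9% in all). With size factors 4222 genes were higher and 4134 lower, against 2257 and 5213 as deposited, and Vcan was then called as well, higher by 0.31 (adjusted p = 0.039). The 5 did not overlap between the ages, which 28.6% of all genes did in that direction.

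Hapln4 was at 15.1, 11.1 and 17.8 TPM in the P209L mice. The KO mice held 60.5, 47.6 and 85.8 TPM and the R206W mice 58.3, 58.0 and 78.5 TPM of it, so the 3-week mean was 22.6% of the 8-week mean (log2 difference -2.07, SE 0.251, adjusted p = 2.67e-05). Hapln2 was at 4.43, 4.09 and 3.77 TPM against 7.38 to 10.5 TPM (log2 difference -0.93, SE 0.192, adjusted p = 0.00131). Both link proteins were lower in every P209L mouse than in every KO or R206W mouse.

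Tnr was at 21.9, 23.2 and 27.1 TPM in the P209L mice against 34.2 to 54.9 TPM in the older mutants (log2 difference -0.80, SE 0.182, adjusted p = 0.00254). Ncan was at 40.8, 39.2 and 48.8 TPM against 59.4 to 89.5 TPM (log2 difference -0.74, SE 0.183, adjusted p = 0.00442). Acan was at 0.40, 0.63 and 0.53 TPM against 0.97 to 1.88 TPM, 35.5% of the older mean (log2 difference -0.69, SE 0.177, adjusted p = 0.00565). On this scale the added 1 TPM makes the Acan difference smaller than its ratio. Bcan (-0.26, adjusted p = 0.139), Hapln1 (-0.25, adjusted p = 0.159) and Vcan (0.15, adjusted p = 0.327) did not pass the test. Relative to its level, Hapln1 varied most among the young mutants, with 17.1, 29.8 and 27.98 TPM.

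Over all 17 mice, an exact permutation test of mean TPM compared the 5 mice of 3 weeks with the 12 of 8 weeks. Hapln2 and Hapln4 did not overlap between the ages and reached the smallest p that the 6188 regroupings can give, 0.000162 (adjusted over all genes tested, 0.00101). Over all genes tested, 10.2% lay below without overlap and 6.49% above. The adjusted p was 0.00233 for Tnr, 0.00383 for both Acan and Ncan, and 0.0166 for Hapln1. Thus 6 of the 8 genes were called, all lower at 3 weeks, where 38.9% of all genes tested were called lower, 19.4% higher and 58.3% in all. Acan was among the 8 only through its 8-week level. Bcan (adjusted p = 0.347) and Vcan (adjusted p = 0.146) were not called. Hapln1 lost its call without P209L control 1 (adjusted p = 0.0538), P209L control 2 (0.0507) or P209L 1 (0.0532), and with size factors (0.122). Vcan was called higher at 3 weeks with size factors (0.00528), and also without R206W 2 (0.0419) or without P209L 1 (0.0384). This test holds the same mice as both comparisons above and is not separate evidence.

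**Figure D2:**
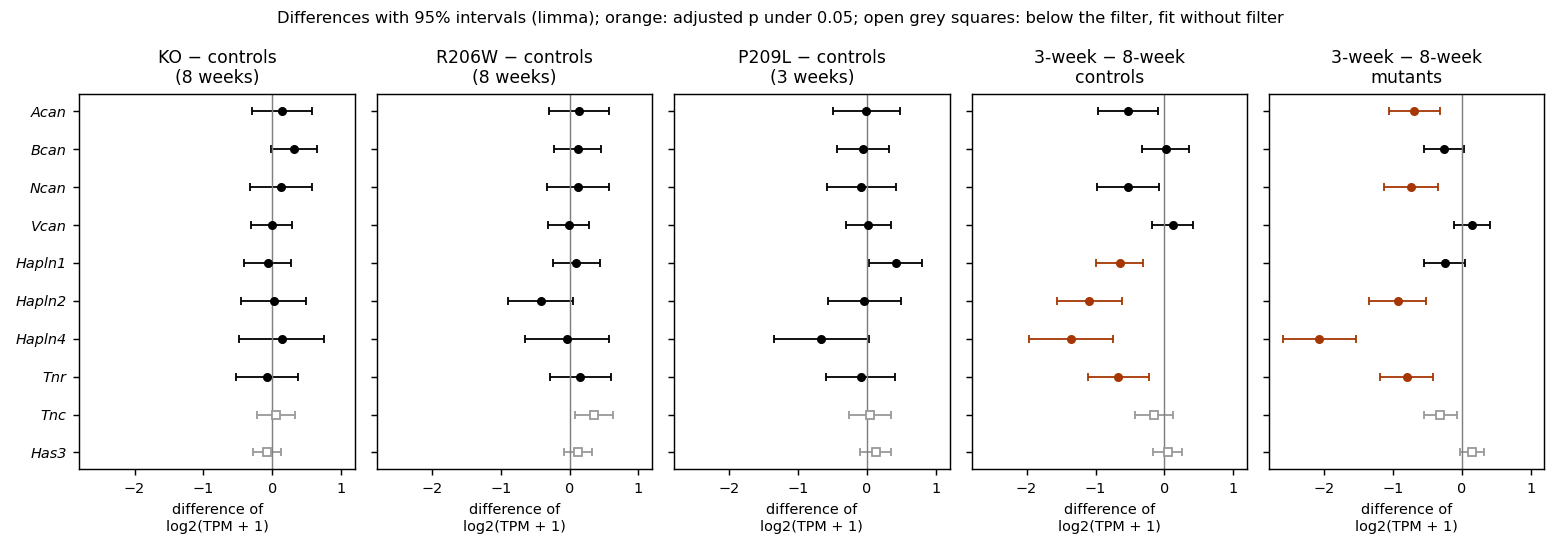
Difference of log2(TPM + 1) for each gene in 5 comparisons, with 95% intervals from limma; orange marks an adjusted p under 0.05 and open grey squares the 2 genes below the filter. No point is orange in the 3 mutant comparisons, 4 are in the controls by age and 5 in the mutants by age, all left of 0.

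The lectican make-up separated the ages. Bcan made up 66.6% ± 2.33 of the summed lectican TPM at 8 weeks (63.9% to 69.9%, n = 12) and 73.2% ± 1.32 at 3 weeks (71.6% to 74.6%, n = 5). Ncan made up 30.0% ± 2.38 and 22.9% ± 1.40, with ranges of 26.2% to 33.1% and 21.2% to 24.5%. Neither share overlapped between the ages, KO control 1 included.

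Link protein shares overlapped between the ages, for Hapln4 and Hapln1 through KO control 1 alone, which held 47.5% and 41.6%. The other 8-week mice held 56.6% to 72.4% for Hapln4 and 19.8% to 34.0% for Hapln1. The 3-week mice held 24.6% to 52.3% and 35.1% to 66.3%. Hapln4 held 61.7% ± 6.42 of the summed TPM at 8 weeks (SD, n = 12), the largest share in each of the 12 mice. At 3 weeks it held 51.1% ± 1.75 in the P209L controls (SD, n = 2) and 33.9% ± 8.44 in the P209L mice (SD, n = 3), where Hapln1 held 56.5% ± 9.75. Hapln1 therefore was the leading link protein transcript in the P209L mice and Hapln4 in the P209L controls. Hapln2 held 9.38% ± 1.75 at 8 weeks and 9.57% ± 2.72 at 3 weeks. Tnr was 97.6% ± 0.623 of the tenascin TPM at 8 weeks and 97.0% ± 0.817 at 3 weeks, with overlap. These shares are described without a test.

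**Figure D3:**
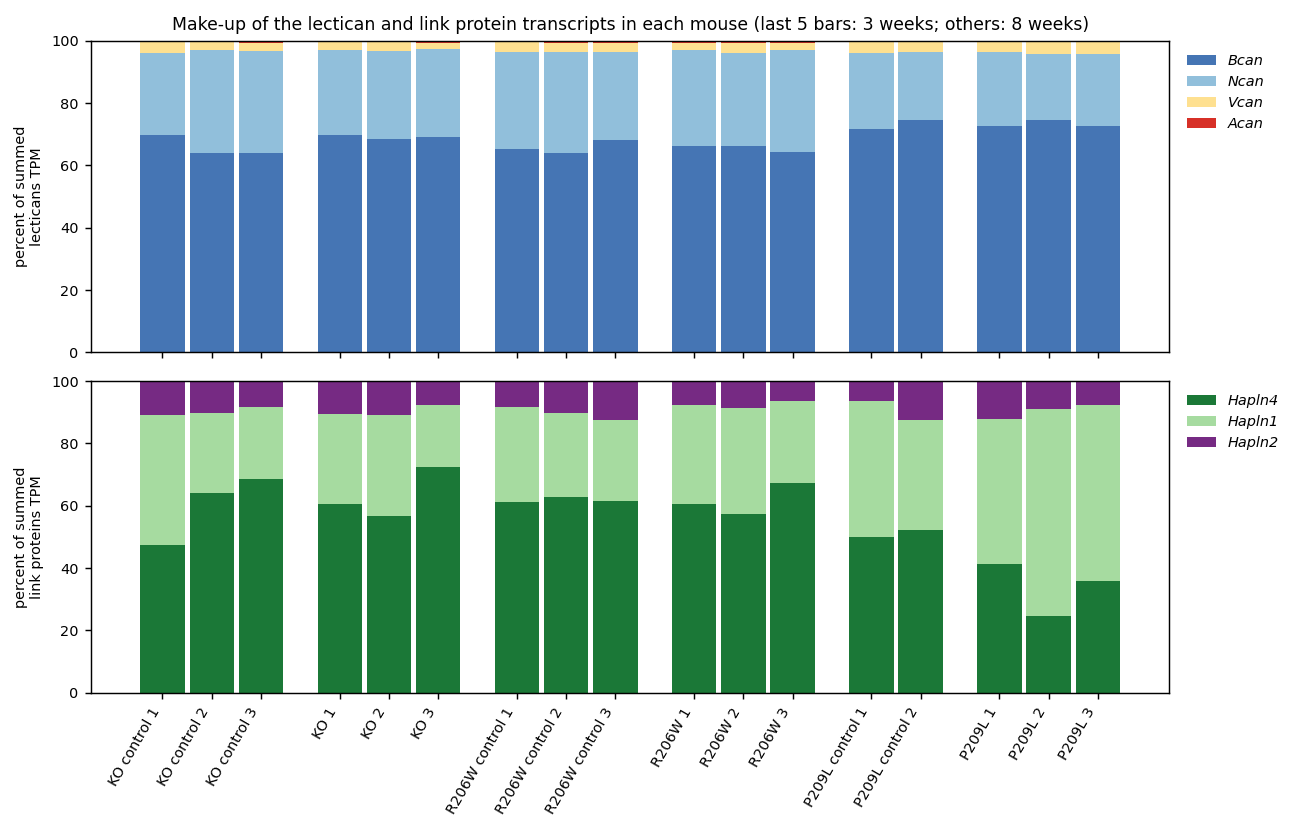
Percent of the summed TPM of the 4 lecticans (top) and of the 3 link proteins (bottom) taken by each gene, 1 stacked bar a mouse, axes from 0 to 100. Bcan takes 71.6% to 74.6% of the lectican bar in the last 5 bars (3 weeks) against 63.9% to 69.9% in the others, and Hapln4 takes 24.6% to 41.1% of the link protein bar in the P209L mice.

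No gene of the set passed the test in a mutant against its own controls. In KO mice 0 of 8 were called, where 0.00615% of all genes tested were, and all 10 genes overlapped between KO mice and controls. Over all genes tested, 5.43% lay above and 0.824% below every control without overlap. The unadjusted p was under 0.05 for 4.08% of all genes tested and for 0 of these 8. Bcan had the largest difference, 0.32 (SE 0.158, adjusted p = 0.999), with 153.4, 146.1 and 217.6 TPM in KO mice against 111.1, 135.4 and 166.9 TPM in KO controls. The lowest and the highest Bcan values among the 8-week mice were thus both in this line. Without KO control 1, Acan, Ncan, Hapln2 and Hapln4 changed sign.

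In R206W mice 0 of 8 were called, with 0.0369% over all genes tested and an unadjusted p under 0.05 in 2.19% of them and in 0 of these 8. Hapln2 was at 7.50, 8.81 and 7.38 TPM in R206W mice against 8.90, 11.01 and 13.0 TPM in their controls, 72.0% of the control mean without overlap (log2 difference -0.42, SE 0.222, adjusted p = 1). Tnc was at 1.55, 1.18 and 1.5 TPM against 0.68, 1.12 and 0.85 TPM, also without overlap. It had the lowest unadjusted p of the 10 genes here, 0.0141 with limma (log2 difference 0.36, SE 0.127, adjusted p = 1, no filter). Its mean over the 17 mice, 0.964 TPM, was below the filter, so it is not among the 8. Has3 was at 1.08, 1.13 and 1.10 TPM against 1.00, 0.88 and 0.92 TPM. Groups without overlap were found for 8.09% of all genes tested with R206W above and for 8.11% with R206W below, against 2 and 1 of the 10 genes. The smallest p that an exact permutation test of 3 mice against 3 can give is 0.1, the value of each of these 3 genes.

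In P209L mice 0 of 8 were called, with 0.0984% over all genes tested (0.0799% higher and 0.0184% lower) and an unadjusted p under 0.05 in 7.46% of them and in 1 of these 8, Hapln1. Hapln4 was at 15.1, 11.1 and 17.8 TPM in P209L mice against 19.4 and 28.1 TPM in their controls, 61.6% of the control mean without overlap. Its log2 difference was -0.66 with a 95% interval of -1.35 to 0.02 (adjusted p = 0.684). Every P209L mouse below every control was found for 10.7% of all genes tested and the reverse for 14.2%, against 1 and 0 of the 10 genes. Hapln1 was at 17.1, 29.8 and 27.98 TPM against 17.1 and 18.9 TPM, a log2 difference of 0.42 (SE 0.180, adjusted p = 0.621), and P209L 1 lay within the control range. The other 6 tested genes had differences of -0.09 to 0.02, but that of Hapln2 was -0.61 without P209L control 1 and 0.54 without P209L control 2. The P209L controls enter both this comparison and that of the controls by age.

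The lines were also compared with each other. None of the 8 genes passed the limma test of a difference in response between KO and R206W, between P209L and R206W or between P209L and KO (0 called in each, with 0.0307%, 0% and 0.0492% over all genes tested, and an unadjusted p under 0.05 in 2.29%, 3.98% and 7.98%). The Hapln4 response differed by -0.80 and the Hapln1 response by 0.49 between P209L and KO (limma adjusted p = 0.658 and 0.64). Between R206W controls and KO controls, both at 8 weeks, 0 of the 8 were called, with 0% over all genes tested and an unadjusted p under 0.05 in 3.12%. All 10 genes overlapped there, where 8.43% of all genes lay above without overlap and 0.646% below, and the differences of the 8 tested genes were 0.08 to 0.21 against a median of 0.13 over all genes. An adjusted p above the threshold does not show that the levels were equal.

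The rest of the matrix machinery was read from gene lists by age, against 24.8% lower and 11.3% higher over all genes tested in the controls and 32.1% and 13.9% in the mutants. In the controls, 7 of 20 tested genes of chondroitin sulfate synthesis were lower at 3 weeks and 0 higher. They included Xylt1, which starts the chain (-1.11, SE 0.193, adjusted p = 0.000584), the chain-building Chsy3 (-0.84, SE 0.153) and the sulfotransferase Chst11 (-0.81, SE 0.156). Of 6 tested hyaluronan genes 1 was lower, Tnfaip6, which remodels hyaluronan (-1.26, SE 0.253, adjusted p = 0.00166). The other hyaluronan synthases stayed low in every mouse, Has1 at 0.19 to 0.53 TPM and Has2 at 0.11 to 0.28 TPM. In the mutants 12 of 20 and 2 of 6 were lower and 0 higher.

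Of 14 tested matrix proteases and inhibitors, 3 were lower in the younger controls, namely the inhibitor Timp3 (-1.04), the membrane protease Mmp16 (-0.70) and the aggrecan-cleaving Adamts1 (-0.81). Of 15 receptors and bound ligands 6 were lower, among them Ptprz1, a receptor for pleiotrophin that is itself a chondroitin sulfate proteoglycan (-0.99), the pentraxin Nptx1 (-1.24) and the receptor Rtn4rl2 (-1.26). Other brain proteoglycans went both ways, with 4 of 12 lower, including Spock1 (-0.93) and Spock3 (-0.63), and 2 higher, including agrin, Agrn (0.80). In the mutants 7, 10 and 5 of these 3 lists were lower and 0 higher, where 32.1% of all genes were lower. The 3 of 14 in the controls is below the 24.8% of all genes. In the KO, R206W and P209L comparisons 0 genes of these lists were called.

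Markers of cells that make or carry the matrix were counted in the same way, against 24.8% of all genes lower and 11.3% higher in the controls and 32.1% and 13.9% in the mutants. The parvalbumin interneuron list held 10 genes, some of which, such as Gad1 and Gad2, also mark other interneurons. Of the 10 genes 4 were lower in the younger controls, such as Syt2 (-1.39) and Erbb4 (-1.06), and 1 was higher, Cox6a2 (0.71). Pvalb itself, the defining gene, ranged over 84.2 to 135.4 TPM at 8 weeks and 68.3 to 128.7 TPM at 3 weeks. The summed level of the 10 genes was 418.6 to 430.6 TPM in the P209L controls and 371.5 to 653.9 TPM in the 8-week controls. KO control 1 alone gave this overlap, and the other 8-week controls held 566.2 to 653.9 TPM. Of 9 astrocyte markers 4 were lower, including the water channel Aqp4 (-0.78), and of 7 cortical excitatory neuron markers 4 were lower, including Camk2a (-0.69). In the mutants by age, 6 genes of the parvalbumin interneuron list were lower and 2 higher. There 5 astrocyte and 4 excitatory neuron markers were lower, and 0 of these last 2 lists were higher. The part of these cells in the levels of the matrix genes was not tested.

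Mature oligodendrocyte markers went the other way from Hapln2 in the controls but not in the mutants. In the younger controls 6 of 10 were higher and 0 lower, among them the myelin gene Mog (1.03), at a summed level of 4128 and 6145 TPM against 2676 to 3647 TPM in the 8-week controls. In the P209L mice against the older mutants 3 of 10 were lower and 0 higher, which is near the 32.1% of all genes called lower there. Hapln2 was lower in both. Of 8 oligodendrocyte precursor markers 1 was higher in the younger controls, Neu4 (0.62), and 2 were lower in the mutants by age, against 11.3% of all genes higher and 32.1% lower.

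**Figure D4:**
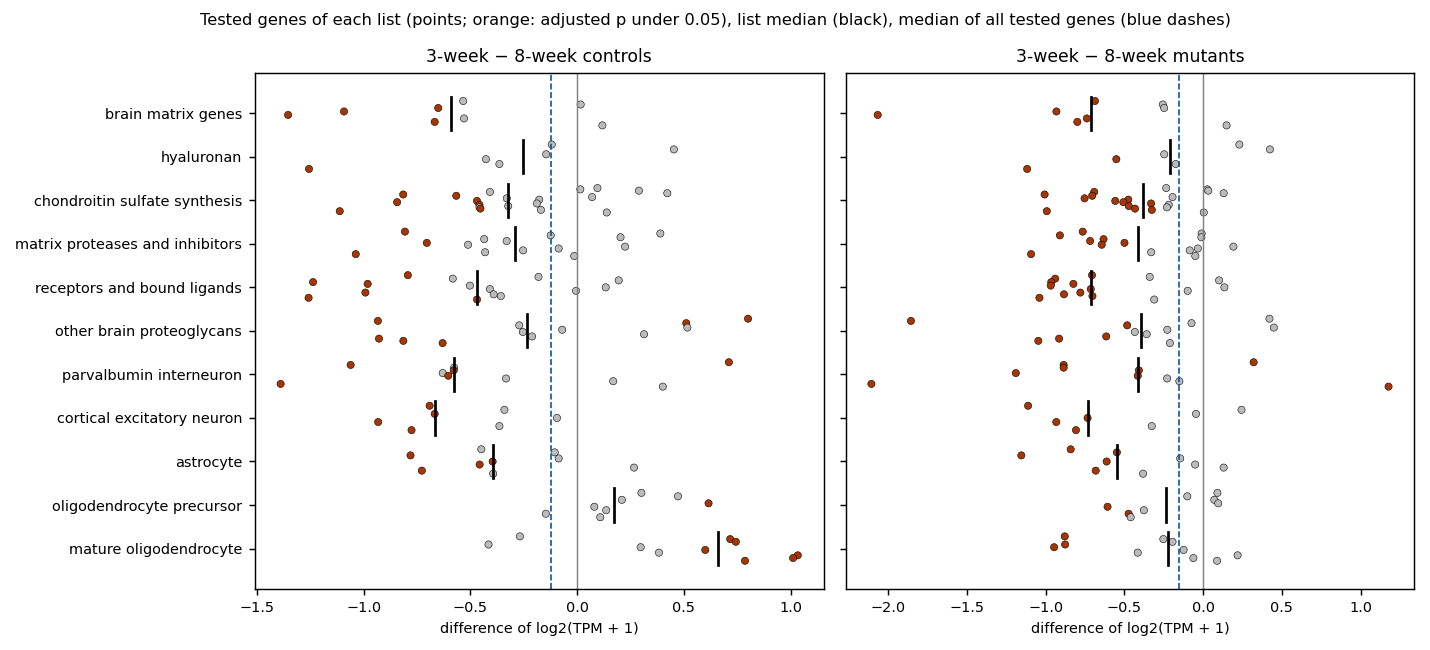
Difference of log2(TPM + 1) between 3-week and 8-week controls (left) and mutants (right) for every tested gene of each list, 1 point a gene, with the list median as a black bar and the median of all tested genes as blue dashes; orange marks an adjusted p under 0.05. The median of the brain matrix genes lies at -0.59 on the left and -0.71 on the right, against -0.12 and -0.16 over all genes.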

How the data were processed

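RNA of bulk cortex from 17 mice was profiled from stranded total RNA libraries. The authors deposited TPM values by gene symbol, rounded to 2 decimals, with a column for each mouse. The submitters' processing notes name Trim Galore, STAR 2.7.1a, GATK 4.0.4.0, RSEM and build mm10; their roles and the annotation are not given in the sources used here. TPM removes depth, so counting error is unknown, and abundant transcripts can shift all others in a sample.

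Groups came from the labels, which number replicates but do not state litters; p-values measure the spread between these samples. The 120 repeated symbols were summed. Genes with a mean of at least 1 TPM (16265) were tested as log2(TPM + 1) with limma 3.58.1 in R 4.3.3, using a mean for each of the 6 groups, eBayes with trend=TRUE, two-sided tests and Benjamini-Hochberg adjustment at 0.05. The two-sided exact permutation test went through every regrouping with numpy 2.4.6. The limma step was tested on simulated data. Gene coordinates came from GENCODE M21 (GRCm38), which held 98.3% of the symbols.

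The members and lists were chosen with earlier results of these data known. The rule named all members, up to 3 genes a list with the smallest p among those called in the control comparison by age, up to 2 in each mutant comparison, and the 3 genes most like Acan, Vcan and Hapln2; some results of this rule are not reported here. Other genes named (Ttr, Hnrnph2, Hapln3, Has1, Has2, Pvalb) were added after their values were seen. Alternatives covered the pseudocount, filter, scaling, robust fitting, the groups fitted, a replicate block and leaving out each mouse; 4 more were chosen after the data were seen.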

Additional observations from a re-analysis of the deposited data

How the results depend on the processing

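Depth is unknown, and 2 P209L controls limit the comparisons at 3 weeks. In the controls by age, the number of genes called was 0 to 6 when each mouse was left out in turn (0 without P209L control 1), 3 to 6 under the other alternatives (4 as reported), and 3, 5, 4 and 6 under those added after the data were seen: KO controls alone or R206W controls alone as the 8-week group, and KO control 1 left out with P209L control 1 or with P209L control 2. In the mutants by age 4 to 6 were called (4 with a filter at a mean TPM of 5, which Acan does not reach), and in the KO, R206W and P209L comparisons 0 under every alternative run. Over all genes, 5876 were called in the controls by age, and 2719 to 8181 when each mouse was left out. When the columns were rescaled by median-of-ratios size factors, the all-gene median moved from -0.12 to 2.05e-05, as this scaling does by design. Then 3503 genes were called higher and 3677 lower, against 1837 and 4039. Hapln4 was then at -1.22, Hapln2 at -0.97, Tnr at -0.53 and Hapln1 at -0.52, while Ncan (-0.39, adjusted p = 0.0419) and Acan (-0.47, adjusted p = 0.0457) passed the limma test; in the mutants by age Vcan passed too (0.31, adjusted p = 0.039), and in the exact permutation test Vcan passed (adjusted p = 0.00528) and Hapln1 did not (adjusted p = 0.122). In P209L against its controls the scaling gave 66 calls over all genes against 16. The exact permutation test called 5 to 7 genes when each mouse was left out.

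Without a filter (adjusted p = 0.0549), with the groups of the comparison alone (adjusted p = 0.0954) and with KO controls alone (adjusted p = 0.0736), Tnr lost its call in the controls by age. For samples with the same replicate number, deviations from the group mean correlated at r of -0.058 to 0.331 in KO. The r was -0.113 to -0.028 in R206W and 0.003 to 0.081 in P209L. With so few mice a group this cannot decide whether the numbers pair samples, and the labels do not say. With the replicate block 4 genes were called in the controls by age and 6 in the mutants by age. Bcan was the one added (-0.26, limma adjusted p = 0.0408), and Vcan in P209L was then at -0.00996. Some uncalled differences changed sign. Leaving out each mouse gave ranges in KO of -0.0891 to 0.39 for Acan, -0.17 to 0.33 for Ncan, -0.0604 to 0.0538 for Vcan, -0.13 to 0.0174 for Hapln1, -0.13 to 0.12 for Hapln2, -0.26 to 0.41 for Hapln4 and -0.41 to 0.18 for Tnr; in R206W of -0.14 to 0.0754 for Vcan and -0.18 to 0.0348 for Hapln4; in P209L of -0.12 to 0.10 for Acan, -0.16 to 0.0454 for Bcan, -0.11 to 0.16 for Vcan and -0.61 to 0.54 for Hapln2; and in the controls by age of -0.0843 to 0.12 for Bcan. Bcan in the controls by age was at -0.0459 with R206W controls alone and at -0.16 without KO control 1 and P209L control 2, and Hapln2 in KO was at -0.0488 with size factors. The cause of these changes was not tested.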

Other observations

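Leptomeningeal fibroblast markers, whose cells also make matrix, gave 1 of 8 lower in the younger controls (Aldh1a2, -0.75) and 6 of 8 lower in the P209L mice against the older mutants, with limma and Benjamini-Hochberg adjustment, against 24.8% and 32.1% lower over all genes tested. Their summed level was 17.3 to 20.6 TPM in the P209L mice and 30.8 to 31.8 TPM in their controls, and 0 of the 8 were called in that comparison. The mature oligodendrocyte markers summed to 2488 to 3568 TPM in the P209L mice against 4128 and 6145 TPM in their controls, with 10 of 10 differences below 0, a median of -0.84 and 0 called.

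Lists kept to check the dissection gave the following. Of 4 tested cerebellar genes 2 were called higher in the younger controls, Cbln1 (0.69) and Calb2 (0.56), against 11.3% of all genes tested. The other 2, Zic1 and Zic2, had differences below 0 and were not called. Cbln3, Gabra6 and Pcp2, below the filter, averaged 0.18, 0.09 and 0.205 TPM in the P209L controls. Of 3 tested choroid plexus genes 1 was higher, Ttr (3.90, SE 1.44), which was at 8.31 TPM in P209L control 1 and 1740 TPM in P209L control 2. Of 3 tested skeletal muscle genes 0 were called there. Between KO mice and KO controls 0 of the 4 tested cerebellar genes were called, where 0.00615% of all genes tested were. All 4 differences were above 0, with a median of 0.44 against 0.06 over all genes tested. The cerebellar list summed to 24.06 to 34.62 TPM in KO mice and 16.95 to 22.04 TPM in KO controls. The part of cerebellar tissue in the KO comparison was not tested.

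Over the 17 mice, the genes whose centred log2(TPM + 1) profile lay nearest to that of Acan were Dhx38, Slc1a4 and Tmem131, with root-mean-square differences of 0.0877, 0.0928 and 0.0958, and the nearest brain matrix gene was Ncan at rank 60. For Hapln2 they were Anln, Plekhb1 and Rassf2 (0.201, 0.207 and 0.211).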
